A study of Mus musculus with 32 samples.

Results

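The collagen genes were followed across 32 one-colour mouse arrays from a study of peroxisome proliferator activated receptor gamma (Pparg), the nuclear receptor that drives fat cell formation, and glycerol kinase (Gyk, named Gk in the gene table used here), which phosphorylates glycerol for triglyceride synthesis. Members were the genes with a symbol of the form Col, number, a, number whose probe was well above background on at least 4 of the 32 arrays, with the brightest probe used where a gene had several. Of 44 such genes in the reference table, 43 had a named probe and 29 were members, among 14857 of 20659 genes of any kind that met the same filter. The 29 were 9 fibrillar collagens, 5 type IV collagens of basement membranes, 3 beaded-filament (type VI) collagens, 5 fibril-associated collagens, 2 multiplexins, 4 network and anchoring collagens and Col23a1, a transmembrane collagen. The 14 below the filter were Col4a3, Col6a4, Col6a5, Col6a6, Col9a3, Col11a1, Col13a1, Col17a1, Col19a1, Col22a1, Col24a1, Col25a1, Col26a1 and Col28a1. Nearest to the limit, Col9a1 was well above background on 4 arrays and Col8a2 on 5, against 3 each for Col13a1, Col28a1 and Col6a4.

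The 8 groups held 4 samples each, all of strain C57Bl/6. The in vitro samples were a Pparg control, a Pparg knockdown, a Gyk control and a Gyk knockdown, each labelled room temperature. The in vivo samples were a Pparg control and a Pparg knockout at room temperature and the same genotypes under cold exposure. Age, sex, the way the knockdown and the knockout were made, any promoter or Cre used, and the length and temperature of the cold exposure are not given in the sources used here. Nothing in the labels ties the 4 samples of a group to different animals or dishes; the p-values therefore rest on sample-to-sample spread that could be technical in origin.

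Several label checks bear on what follows. Every sample was labelled preadipocytes, yet Adipoq, Fabp4, Cidea and Ucp1, markers of mature and brown fat cells, were well above background on every array of all 8 groups. The knockdowns lowered their targets, Pparg by a log2 difference of -1.91 and Gk by -2.40. The Pparg knockdown also lowered Gk (-1.44, passing), whereas Pparg gave -0.18 under Gyk knockdown and did not pass. In the samples labelled knockout Gk gave -0.82 at room temperature, passing, and -0.98 in the cold, not passing. The Pparg probe was higher, not lower, in the samples labelled knockout, by 2.08 at room temperature and 2.13 in the cold, so every direction drawn from them below rests on that label. Fat cell genes were lower in the same samples, as in the Pparg knockdown cultures: Adipoq gave -1.68 at room temperature, -1.99 in the cold and -1.46 in culture, and Cidec gave -1.59, -2.24 and -2.36, all passing. Whether this probe lies in the deleted part is not given in the sources used here. Ucp1, the uncoupling protein known to rise in brown fat in the cold, was lower in the cold in the control samples by 1.04 (log2 difference -1.04, limma adjusted p = 0.000434). Each experiment was scanned on 2 slides of its own, so cold and room temperature cannot be told apart from slide and scan day, whereas each slide held 2 controls and 2 knockdown or knockout samples of its experiment.

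Collagens are triple-helical proteins of the extracellular matrix. Fibrillar collagens (types I, III and V among them) form the cables that give tissue its tensile strength, type IV forms the sheet-like basement membrane that surrounds each fat cell, and type VI forms beaded filaments between fibrils and basement membrane. Chains are hydroxylated and folded in the endoplasmic reticulum, trimmed outside the cell and cross-linked by lysyl oxidases. In adipose tissue this matrix is made by fat cells, their precursors and other stromal cells. In whole samples such as these, fewer cells of a type and less RNA per cell cannot be told apart.

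Promoter sequence is shown for 5 members on which the results turn: Col1a2 and Col3a1, partners in most fibrils, Col4a5, which had the largest knockout difference in the cold, and Col15a1 and Col27a1, which fell in the Pparg knockdown cultures. Each is the 250 bases before the RefSeq start, on the plus strand of GRCm38.p6. The windows are chr6:4505368-4505617, chr1:45311288-45311537, chrX:141475169-141475418, chr4:47207762-47208011 and chr4:63215162-63215411 in the order printed. Capitals mark matches to the GC box (letters GGGCGG), to the CCAAT box of that spelling, and to the TATA box (letters TATAAA).
Col1a2: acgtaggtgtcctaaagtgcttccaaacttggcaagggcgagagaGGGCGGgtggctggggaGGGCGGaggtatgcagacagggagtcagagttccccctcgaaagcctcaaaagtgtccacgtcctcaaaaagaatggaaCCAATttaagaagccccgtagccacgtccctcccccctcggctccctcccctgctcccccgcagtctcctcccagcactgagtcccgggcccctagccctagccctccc
Col3a1: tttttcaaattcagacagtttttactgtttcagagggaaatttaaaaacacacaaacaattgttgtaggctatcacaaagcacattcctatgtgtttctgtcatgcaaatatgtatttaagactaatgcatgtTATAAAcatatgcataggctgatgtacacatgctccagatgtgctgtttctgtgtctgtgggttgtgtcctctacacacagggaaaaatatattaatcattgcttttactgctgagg
Col4a5: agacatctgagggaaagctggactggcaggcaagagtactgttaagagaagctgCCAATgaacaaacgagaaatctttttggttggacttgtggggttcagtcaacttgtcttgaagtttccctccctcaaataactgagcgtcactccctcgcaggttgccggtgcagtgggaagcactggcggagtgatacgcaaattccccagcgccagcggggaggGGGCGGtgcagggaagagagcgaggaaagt
Col15a1: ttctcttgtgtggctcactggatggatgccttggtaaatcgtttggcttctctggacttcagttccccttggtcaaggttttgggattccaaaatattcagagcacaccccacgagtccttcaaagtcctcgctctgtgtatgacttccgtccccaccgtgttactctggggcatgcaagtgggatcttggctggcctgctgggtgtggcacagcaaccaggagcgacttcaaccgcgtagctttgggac
Col27a1: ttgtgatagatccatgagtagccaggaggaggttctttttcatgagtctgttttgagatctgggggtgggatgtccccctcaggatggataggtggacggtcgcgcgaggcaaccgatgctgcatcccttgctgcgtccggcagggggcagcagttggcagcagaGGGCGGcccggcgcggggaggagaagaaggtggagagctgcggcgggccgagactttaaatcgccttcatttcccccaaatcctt

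Of the 29 members, 25 had a promoter in the RefSeq table, with 28 windows in all; Col14a1, Col1a1, Col2a1 and Col5a2 had none. On either strand, GGGCGG lay in 17 of the 28 member windows (60.7%), against 32.7% of all 32851 windows of that length. CCAAT was in 9 (32.1%, against 33.8%) and TATAAA in 3 of 28, against 12.4% of all windows. The DR1 repeat, a pair of AGGTCA elements 1 base apart that Pparg with its partner Rxr is known to bind, was in 0 of the member windows and in 0.0335% of all windows. The single element AGGTCA, whose matches include those of the repeat, was in 5 member windows (17.9%, against 14%). These are matches of letters, not binding sites. The starts of Col4a1 and Col4a2 lie head to head, 21 bases apart, and those of Col4a5 and Col4a6 lie 1343 bases apart on opposite strands.

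In the cold, collagens of several classes were higher in the samples labelled Pparg knockout. Relative to cold controls, 11 of 22 members tested were higher in the samples labelled knockout and 1 was lower, where 32% of the 12983 genes tested were called in either direction, 13.7% higher and 18.3% lower (limma, adjusted p under 0.05 over all genes tested). The 22 members had a median log2 difference of 0.49, and all genes -0.05. The higher members were 4 of 7 fibrillar, 2 of 5 type IV, all 3 type VI, 1 of 3 fibril-associated and 1 of 2 multiplexin genes. The other 7 members were not tested, being well above background on fewer than 4 of these 8 arrays.

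Among the fibrillar genes, Col1a1, the major chain of type I collagen, read 2.04, 2.57, 2.24 and 2.51 in the 4 cold controls and 3.36, 3.61, 3.03 and 3.56 in the 4 cold knockout samples (levels are log2 signal minus the array's 75th percentile). The groups did not overlap, and the difference was 1.05 (SE 0.18, adjusted p = 0.00333, limma). Col3a1, which forms thinner fibrils with type I, read 3.28, 4.0, 3.73 and 3.67 in controls and 4.74, 4.83, 4.62 and 5.21 in knockout samples. Every knockout sample was again above every control, by 1.18 on average (SE 0.19, adjusted p = 0.00259, limma). Col1a2, the partner chain of type I, was higher by 0.93 (SE 0.21) and Col5a1, a type V chain that starts fibril assembly, by 0.79 (SE 0.16), neither with overlapping groups. The remaining fibrillar genes tested, Col5a3, Col11a2 and Col27a1, gave 0.41, -0.11 and 0.21 and did not pass. Col5a2, the partner of Col5a1, was well above background on 2 of the 8 arrays and was not tested here.

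**Figure D1:**
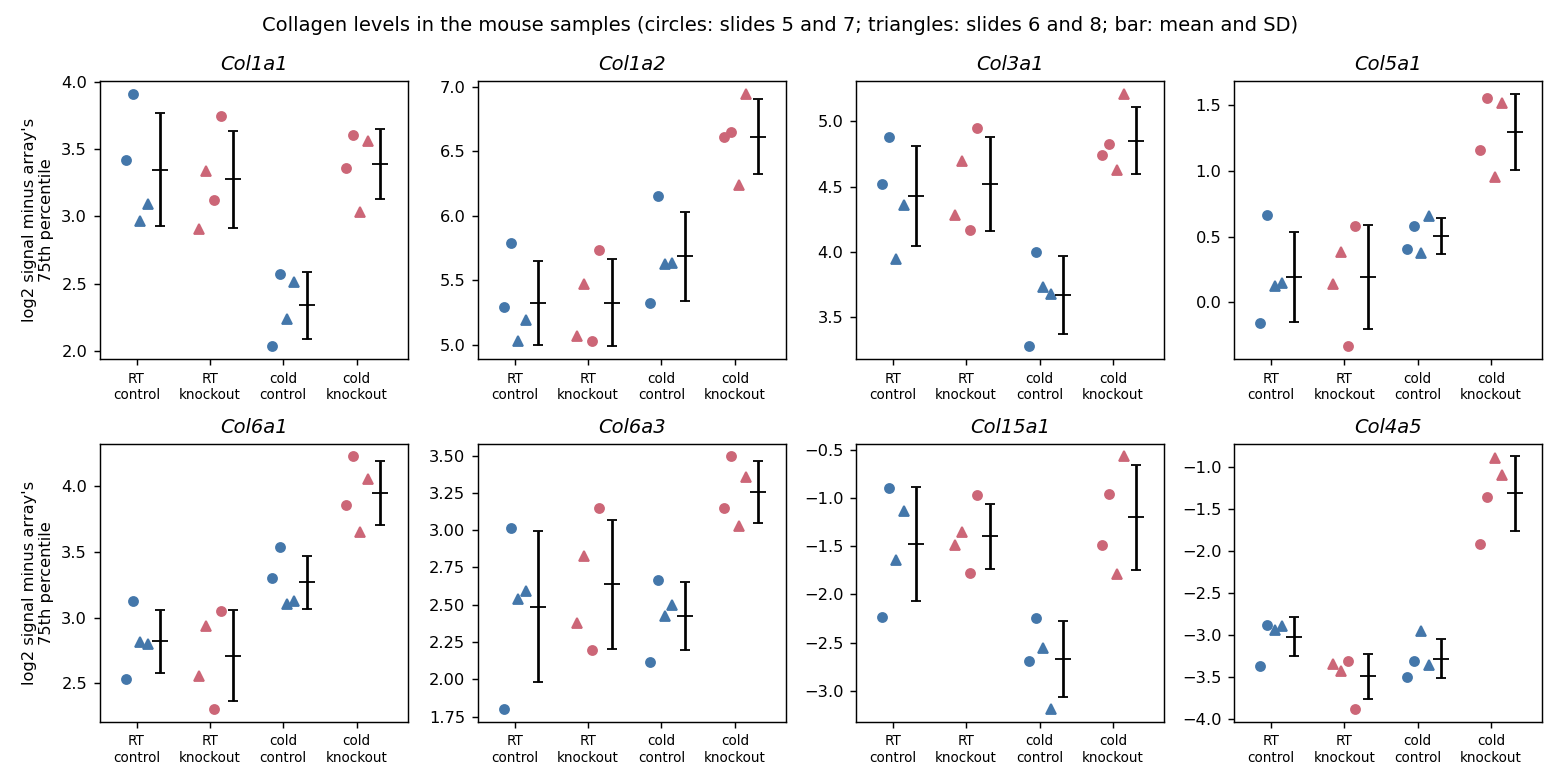
Levels (log2 signal minus the array's 75th percentile) of 8 collagen genes on each of the 16 mouse arrays, by temperature (RT, room temperature) and genotype; blue points are controls, red points samples labelled Pparg knockout, circles and triangles the 2 slides of each experiment, and bars the mean and SD of 4 samples. The cold knockout samples lie above all 4 cold controls for each gene shown, while the room-temperature groups overlap.

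Type IV collagen did not move as a block. Col4a5, a chain of the alpha-5 network found in specialised basement membranes, read -3.50, -3.31, -2.96 and -3.36 in cold controls and -1.91, -1.37, -0.89 and -1.10 in cold knockout samples. All 4 knockout samples stood above the controls, and the difference of 1.97 (SE 0.23, adjusted p = 0.000634, limma) was the largest of the 22. Col4a4 was also higher (0.50, SE 0.13). Col4a1 and Col4a2, the chains of the common network, gave 0.45 and 0.06 and did not pass. For Col4a1 the knockout samples on slide 7 read 4.14 and 4.12 and those on slide 8 read 3.15 and 3.43, against 3.16 to 3.48 in the controls. The 2 slides therefore differed: on slide 7 alone the Col4a1 difference was 0.77 (adjusted p = 0.042, limma) and on slide 8 alone 0.12 (adjusted p = 0.6). Col4a6 gave -0.09 and did not pass.

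The 3 type VI chains moved together: Col6a1 by 0.68 (SE 0.16), Col6a2 by 0.67 (SE 0.22) and Col6a3 by 0.83 (SE 0.16). Col6a3 read 2.12 to 2.66 in controls and 3.03 to 3.49 in knockout samples, with no overlap, whereas Col6a2 overlapped between groups and passed narrowly (adjusted p = 0.049, limma). Over 21 alternative settings the call was kept in 18 for Col6a1, 10 for Col6a2 and 19 for Col6a3. Col15a1, a multiplexin at the border of basement membrane and fibrils, read -2.69, -2.24, -2.56 and -3.19 in controls and -1.48, -0.96, -1.79 and -0.56 in knockout samples. The difference was 1.47 (SE 0.29, adjusted p = 0.00655, limma), without overlap. With the 3 probes of the gene averaged, it was 0.28 and did not pass. Col18a1, the precursor of endostatin and the other multiplexin, gave 0.47 and did not pass. Col16a1, a fibril-associated collagen, was higher by 0.65 (SE 0.17). Col23a1 was the lower member (-0.90, SE 0.22), from -1.83 to -1.02 in controls to -2.65 to -1.96 in knockout samples.

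Within slides, slide 7 alone gave 7 members called and slide 8 alone 11, and a fit with slide as a block gave 12. Under a normexp background correction 5 members were called. The shares of all genes called in these fits are not given here, so a lower or higher count is not read as particular to collagens. Other genes of collagen production were called at shares to be read against the 32% of all genes. Of 20 folding and modification genes, 4 were higher, with Plod2, a lysyl hydroxylase, at 1.67, Fkbp10 at 0.64 and Crtap at 0.61, and 2 were lower, Tmem38b at -0.76 and Plod1 at -0.60. Of 10 processing and cross-linking genes, 4 were higher and none lower, led by Pcolce, the enhancer of procollagen trimming, at 1.96, with Adamts2 at 1.18 and Adamts14 at 1.13. Among 7 receptors, Ddr1 (1.26), Lair1 (1.26), Ddr2 (0.83) and Mrc2 were higher and Itga1 was lower (-0.56). Of 11 basement membrane partners, 5 were higher, including Lama5 (1.20), Nid2 (1.16) and Hspg2 (0.80), and none lower. Of 9 fibril-binding genes, Dpt (1.34), Lum (1.08) and Dcn (0.55) were higher and Fmod was lower (-1.03).

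Markers of other cell types moved in the same samples. Of 9 preadipocyte and fibroblast markers, 5 were higher in the cold knockout samples (median 0.66). The list's summed signal relative to the 75th percentile ranged from 83.8 to 98.7 in controls and from 198 to 236 in knockout samples. Such sums, here and below, add signals that are not logged and are weighted to bright genes, so they do not measure cell content. Vim alone gave 1.70. All 5 macrophage markers were higher (summed 13.7 to 17.6 against 23.7 to 38.1), none of 7 endothelial markers was called (summed 8.93 to 9.95 against 9.33 to 10.5), and 5 of 6 adipocyte and 4 of 6 brown adipocyte markers were lower. Of 6 Schwann cell and nerve markers 3 were higher, S100b by 2.0, Ncam1 by 0.58 and Sox10 by 0.50, and of 7 mural and smooth muscle markers Tagln was higher (0.62) and Cspg4 (-1.37) and Rgs5 (-0.54) were lower. Of 3 lymphocyte markers Cd3d was higher (0.83). No marker of the fibroblast, macrophage, endothelial and adipocyte lists was below background on all arrays of either group. Of 6 skeletal muscle markers, Mb, the oxygen-binding protein myoglobin, was higher by 5.79, from -1.03 to 3.54 in controls to 6.77 to 7.54 in knockout samples. The other 5 did not pass and were uneven among samples: Myh4 read 5.30 and 5.56 in cold controls 1 and 2 and 3.21 in knockout sample 4, but -6.85 to -6.47 in the other 3 knockout samples. The part of these markers in the collagen result was not tested.

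At room temperature the same genotypes differed in few collagens. Of 22 members tested, 1 was higher and 1 lower in the samples labelled knockout, where 44.6% of all 13233 genes tested were called, 19.6% higher and 25% lower; the median was -0.07 against -0.05 for all genes. Col5a2 read -3.34, -3.23, -3.85 and -3.09 in controls and -3.05, -2.64, -2.07 and -1.88 in knockout samples, a difference of 0.97 (SE 0.27, adjusted p = 0.0202, limma) without overlap. It was 1.31 on slide 5 alone and 0.63 on slide 6 alone. Col4a5 was lower by a log2 difference of -0.47 (SE 0.16, adjusted p = 0.0435, limma), with groups that overlapped: -3.37 to -2.88 in controls and -3.89 to -3.32 in knockout samples. Neither call held with the normexp background. Over 19 alternative settings the Col5a2 call was kept in 15 and the Col4a5 call in 7, with no change of sign.

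The main fibrillar, type IV and type VI genes sat close to 0 at room temperature. Col1a1 gave -0.07 (SE 0.24), Col1a2 0.00 (SE 0.21), Col3a1 0.09 (SE 0.23) and Col5a1 -0.00 (SE 0.23). Col4a1 gave -0.04 and Col4a2 -0.22, Col6a1 -0.11, Col6a2 -0.07 and Col6a3 0.15, and Col15a1 0.08 and Col18a1 -0.36, none called. With SE values of 0.11 to 0.30 for these genes and 4 arrays a group, differences well above these errors could go uncalled. Col4a6, for one, gave -0.60 (SE 0.23) in this comparison and did not pass. Of the pathway genes, called at shares to be read against the 44.6% of all genes, Lox, the lysyl oxidase that cross-links fibrils, was higher by 1.69 and Adamts2 by 0.94, and Loxl1 was lower (-1.04). Among 20 folding genes 5 were higher, Creb3l1 (0.81), P4hb (0.73), Crtap (0.45), Mia3 and Plod3, and Tmem38b (-0.77), Plod1 (-0.42) and Ppib were lower. Ddr1 (1.51) and Itga11 (0.48) were higher among 7 receptors and Itga1 (-0.93) was lower; 2 of 11 basement membrane partners were higher and 4 lower, and 1 of 9 fibril-binding genes was higher and 2 lower.

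Here 2 of 9 fibroblast markers were higher, Vim (1.69) and Pdgfra (0.54). Dlk1 (-1.12), Ly6a (-0.42), Cd34 (-0.38), Pdgfrb (-0.16), Dpp4 (-0.11), Thy1 (-0.10) and Pi16 (0.02) did not pass. The list's summed signal, weighted to bright genes, ranged from 62.3 to 79.8 in controls and from 120 to 156 in knockout samples. Of 5 macrophage markers 1 was higher, 5 of 7 endothelial markers were lower (summed 15.2 to 21.1 against 10.9 to 13) and all 6 adipocyte markers were lower. In the other lists, 5 of 6 brown adipocyte and 3 of 7 mural markers were lower, 4 of 5 Schwann cell and nerve markers were higher (Mbp by 1.19), and Cd3d was higher (0.99) and Cd4 lower (-0.43). Mb was higher by 6.63, from -1.46 to 2.08 in controls to 6.19 to 7.04 in knockout samples, whereas the other muscle markers Ckm, Myh1, Myh4 and Tnnt3 were well above background in 1 of the 4 knockout samples and Acta1 gave 1.21, not passing. The part of these markers in the result was not tested.

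The knockout difference itself was compared between temperatures on the 16 mouse arrays. Of 25 members tested, 3 differed, all larger in the cold, and none smaller, where 13.4% of 14068 genes were called, 6.11% higher and 7.24% lower. Col4a5 led with a difference of 2.44 between the effects (SE 0.29, adjusted p = 0.00027, limma), followed by Col1a1 with 1.12 (SE 0.31, adjusted p = 0.0315) and Col3a1 with 1.09 (SE 0.31, adjusted p = 0.0349). The other fibrillar genes named above gave 0.92 for Col1a2 and 0.79 for Col5a1; Col5a2, well above background on 0 of 4 cold controls, is given no value. Col4a1 and Col4a2 gave 0.49 and 0.28, the 3 type VI genes 0.68 to 0.79, and Col15a1 and Col18a1 1.39 and 0.84, none passing. Across members 23 of 25 were above 0, with a median of 0.67 against -0.01 for all genes; all members share the same 16 samples. The count was 1 with the normexp background and ranged from 1 to 7 when single samples were left out, so it rests on individual samples: it was 1 without room-temperature control 2, room-temperature knockout 1, cold control 1 or 3, or cold knockout 2 or 4, 5 without cold knockout 1, 6 without cold knockout 3 or cold control 2, and 7 without room-temperature knockout 4.

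**Figure D2:**
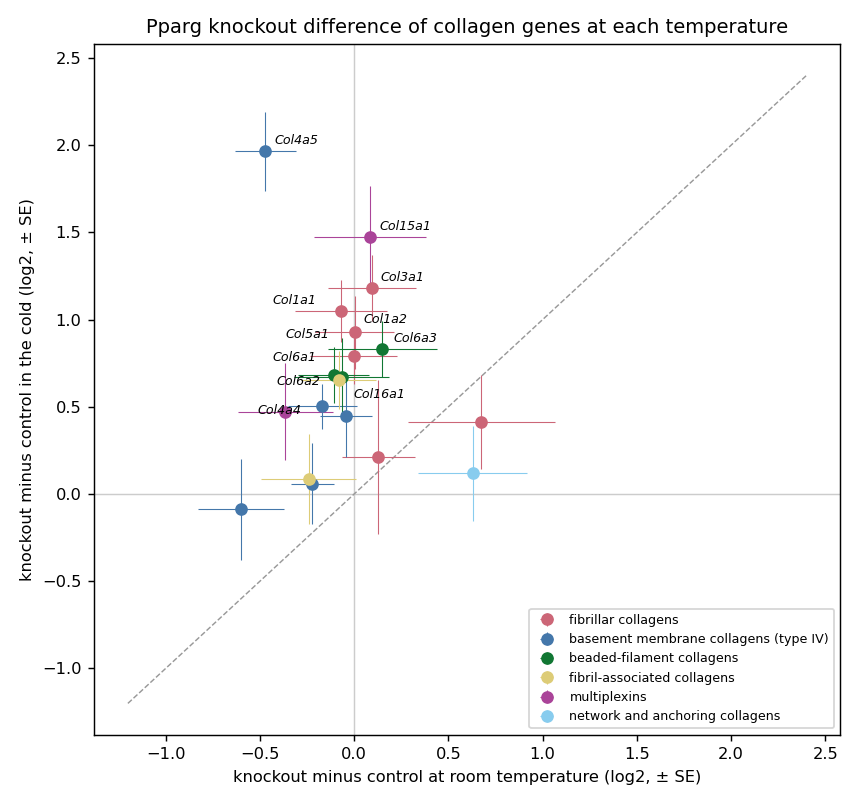
Log2 difference between samples labelled Pparg knockout and their controls for each member tested at both temperatures, at room temperature (horizontal) and in the cold (vertical), with SE bars and colours for collagen classes; the dashed line marks equal differences. Col4a5 (-0.47 and 1.97) lies farthest from that line, and the labelled fibrillar and type VI genes lie near 0 at room temperature and between 0.67 and 1.18 in the cold.

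In culture, Pparg knockdown raised 7 and lowered 3 of 25 members tested, where 34.1% of 12844 genes were called, 18.1% higher and 16% lower. The member median was 0.32 and that of all genes 0.03. The higher members were Col1a1, Col3a1 and Col5a1 among 9 fibrillar genes, Col4a5 among 5 type IV genes, Col16a1, Col7a1 and Col23a1, and none of the 3 type VI genes was called. Samples of the same slide deviated together in this experiment, whether same-numbered or not. With the sample number as a block 18 members were called instead of 10. Slide 1 alone gave 16, slide 2 alone 11, and a slide block 17. The shares of all genes called in these fits are not given here, so these counts are not read as a result about collagens.

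Col3a1 read 2.43, 2.42, 2.80 and 2.80 in the control cultures and 3.60, 3.61, 3.91 and 3.73 in the knockdown cultures. All knockdown cultures lay above all controls, by 1.10 (SE 0.13, adjusted p = 0.00023, limma), and the difference was 1.18 and 1.02 on the separate slides. Col5a1 read 2.21, 2.30, 2.55 and 2.59 against 3.03, 3.07, 3.07 and 3.25, a difference of 0.69 (SE 0.11, adjusted p = 0.00123, limma) that again left no overlap. Col1a1 was higher by 0.43 (SE 0.12, adjusted p = 0.0279, limma), from 3.23 to 3.66 up to 3.79 to 4.08. That call was kept in 12 of 19 alternative settings. Col1a2 gave 0.37 (SE 0.16) and did not pass without a block, and Col5a2 gave 1.56 with an SE of 0.90, since its level differed between slides by more than between groups: -1.70 and -1.90 on slide 1 and -4.61 and -4.65 on slide 2 in the controls.

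Outside the fibrils, Col23a1 read -5.21 to -4.65 in controls and -3.97 to -3.65 in knockdown cultures (1.02, SE 0.14), close to the dim end of the array, and with the normexp background its difference was -0.011. Col16a1 was higher by 0.54 (SE 0.10), Col7a1, the anchoring fibril collagen, by 0.49 (SE 0.09) and Col4a5 by 0.35 (SE 0.08). Col4a1 and Col4a2 gave 0.31 and 0.02, and Col6a1, Col6a2 and Col6a3 gave 0.16, 0.36 and -0.07. None of these 5 passed without a block. With the sample number as a block, limma gave an adjusted p of 0.00337 for Col4a1, 0.0249 for Col6a2, 0.0322 for Col6a1, 0.00307 for Col1a2 and 0.000414 for Col5a2, all now higher, while Col4a2 and Col6a3 still did not pass.

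The lower members were Col27a1, Col15a1 and Col5a3. Col27a1, a fibrillar collagen best known from cartilage, read 2.32, 2.32, 2.79 and 2.46 in controls and 1.41, 1.66, 1.79 and 1.69 in knockdown cultures, without overlap (-0.83, SE 0.13, adjusted p = 0.00131, limma). Col15a1 read -1.12, -1.12, -1.29 and -0.38 against -2.05, -2.53, -1.46 and -1.83, also without overlap (-0.99, SE 0.26, adjusted p = 0.0187, limma); the mean of its 3 probes gave -0.41 and did not pass. Col5a3, the third chain of type V, differed by -0.35 (SE 0.11) with groups that overlapped. Its call was kept in 10 of 19 alternative settings. Col18a1 gave -0.07.

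**Figure D3:**
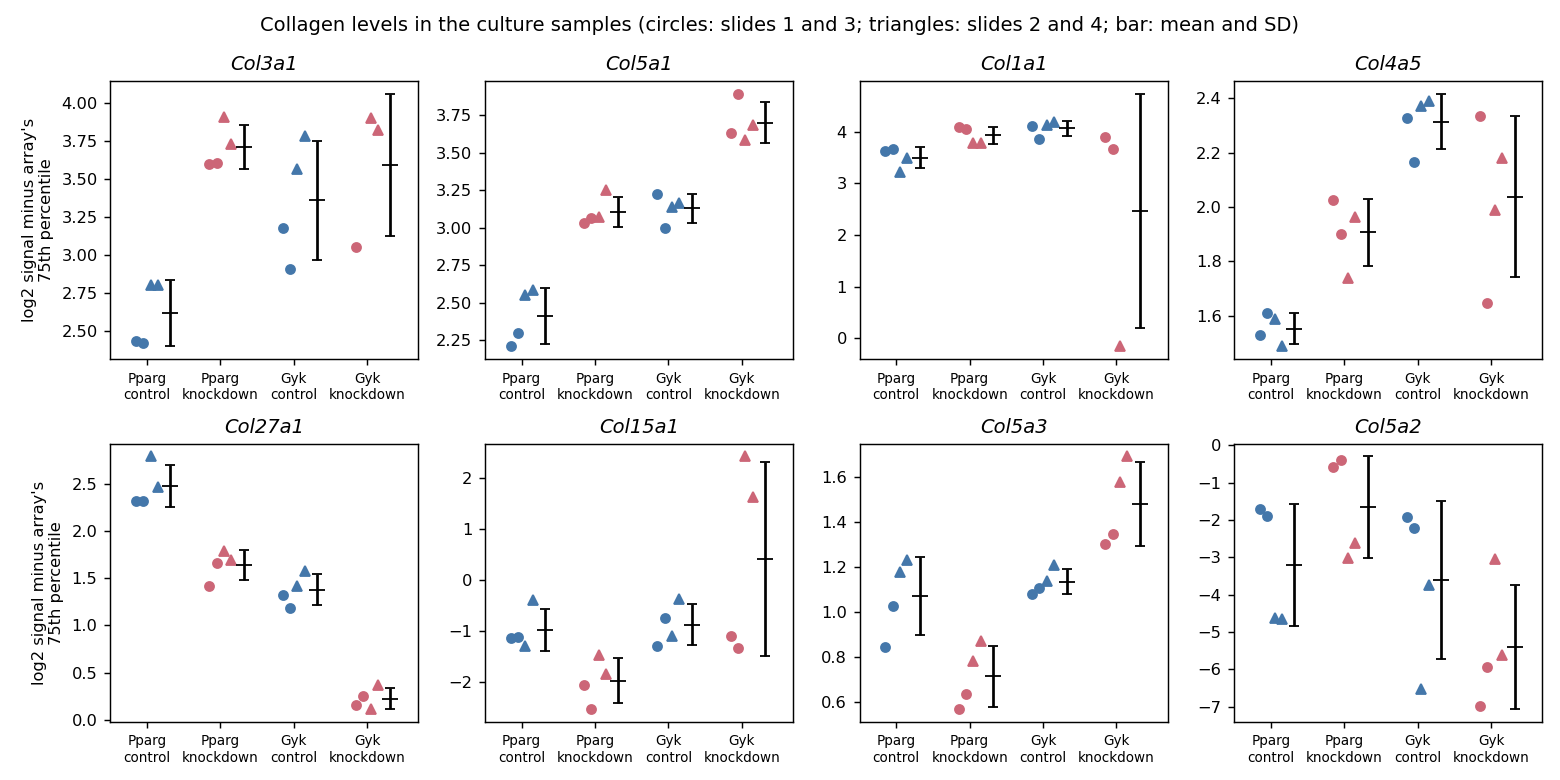
Levels (log2 signal minus the array's 75th percentile) of 8 collagen genes on each of the 16 culture arrays; blue points are controls, red points knockdown cultures, circles and triangles the 2 slides of each experiment, and bars the mean and SD. Col3a1 and Col5a1 rise and Col27a1 falls without overlap in the Pparg knockdown, and Col1a1, Col15a1 and Col5a2 spread widely among the Gyk knockdown or control arrays.

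Among pathway genes in this comparison, to be read against the 34.1% of all genes called, 9 of 20 folding genes were higher and 1 lower, led by P3h2 (0.94) and Plod2 (0.92), prolyl and lysyl hydroxylases, and P4hb (0.68), against Tmem38b (-0.55). Of 11 processing and cross-linking genes 7 were higher, with Lox at 1.96, Bmp1, the procollagen C-proteinase, at 1.36 and Loxl3 at 0.80, and Adamts14 was lower (-0.56). Among 7 receptors Ddr2 (1.14), Mrc2 (1.11) and Ddr1 (0.78) were higher and Itga1 was lower (-0.81). Nid2 (1.13) and Lamc1 (0.48) were higher and Lama5 (-0.50) and Lamb1 (-0.32) lower among 11 basement membrane partners. Of 8 fibril-binding genes 7 were higher and none lower, with Fmod at 1.61. The 7 included Aspn (at least 5.37-fold) and Dpt (at least 3.34-fold), both not well above background in any control. Both entered the test through the knockdown cultures alone, so the filter fixed their direction and they lend that count no support. A fold given as at least sets the bright group's mean against the dim group's mean of, per array, the probe's own signal or, where higher, the lowest signal of any probe well above background.

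All 6 adipocyte and 4 of 5 brown adipocyte markers were lower and 3 of 8 fibroblast markers higher in these cultures (summed 25.7 to 29.8 in controls and 30.2 to 37.2 in knockdown cultures). Among the lower brown adipocyte markers, Dio2 was not well above background in any knockdown culture, so the filter fixed its direction. One of 3 macrophage markers tested, Cd14, was higher, and Lyz2 and Mrc1 were not well above background on any of these arrays; neither were the endothelial genes Emcn, Erg, Tek and Tie1. Myh11 (0.94) was higher and Cspg4 (-1.11) and Des (-1.01) lower among 6 mural markers, and Ncam1 (0.50) and S100b (0.54) were higher and Mbp (-0.67) lower among 5 Schwann cell and nerve markers. The part of these markers in the result was not tested.

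Under Gyk knockdown, collagens were called at about the share of all genes. Of 22 members tested 1 was higher and 1 lower, where 8.76% of 12219 genes were called, 4.65% higher and 4.11% lower; the median was -0.10 against 0.02 for all genes. Col5a1 read 3.22, 3.0, 3.14 and 3.16 in controls and 3.63, 3.89, 3.58 and 3.68 in knockdown cultures, without overlap (0.57, SE 0.11, adjusted p = 0.0227, limma). Col27a1 read 1.32, 1.19, 1.42 and 1.58 against 0.16, 0.25, 0.12 and 0.37, without overlap (-1.15, SE 0.12, adjusted p = 0.00226, limma). The Col5a1 call was lost with the normexp background and on either slide alone, and slide 3 alone gave 0 members called by limma (5 at an unadjusted p under 0.05), slide 4 alone 5 and a slide block 2. Leaving out any 1 of the 4 Gyk controls left 1 member called.

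The Gyk knockdown arrays on slide 4 stood apart for several collagens. Their 75th percentiles were 141 and 246, against 356 to 424 on the other 6 arrays of the experiment. Col15a1 read -1.09 and -1.33 in the slide 3 knockdown samples and 2.43 and 1.64 in those on slide 4, against -1.29 to -0.36 in controls, which gave a difference of 1.28 with an SE of 0.83. Col1a1 read 3.89 and 3.66 on slide 3 and -0.16 in 1 slide 4 sample, the other having been removed as an outlier spot, against 3.86 to 4.19 in controls (-1.61, SE 0.92). Without the slide 4 knockdown samples the differences were -0.34 for Col15a1 and -0.30 for Col1a1, and 5 members were called instead of 2. Col4a1 fell below every control (-0.48, SE 0.18) and Col5a3 lay above every control (0.35, SE 0.12), neither passing. Col5a2 gave -1.80, Col4a2 -0.28, Col1a2 -0.09, Col3a1 0.23 (1 knockdown sample removed as an outlier spot), Col6a1 0.10, Col6a2 0.17, Col6a3 0.24 and Col18a1 -0.48, none passing.

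Of the pathway genes, Plod2 (1.08) was the 1 folding gene of 19 that was higher, and Lox (1.13), Adamts2 (1.0) and Bmp1 (0.69) were higher among 11 processing genes, with none lower in either list. Itgb1 (0.79) was higher among 7 receptors, Nid1 lower (-0.90) among 10 basement membrane partners, and Fn1 higher (0.55) and Ogn lower (-1.76) among 7 fibril-binding genes. None of 6 adipocyte markers and none of 8 fibroblast markers was called, and 5 of 6 brown adipocyte markers were lower. Among those 5, Elovl3 was not well above background in any Gyk knockdown culture, so the filter fixed its direction. Of 6 mural and smooth muscle markers Tagln (1.20) and Acta2 (0.77) were higher and Cspg4 (-0.87) and Des (-0.62) lower. Cd14 (0.41) and Ncam1 (0.62) were higher and S100b (-1.5) and Mb (-0.88) lower, and the part of all these markers in the collagen values was not tested.

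The knockdown effects were compared directly on the 16 culture arrays, where 12.4% of 13118 genes differed, 6.29% higher and 6.14% lower. Gk itself was lower under both knockdowns (-1.44 for Pparg and -2.40 for Gyk), so the comparison does not set Pparg loss against Gk loss alone. Of 26 members tested 3 had a larger difference under Pparg knockdown and 2 a smaller one. Col23a1 (0.91), Col4a1 (0.79, SE 0.22, adjusted p = 0.0264, limma) and Col4a5 (0.63) were the former, and Col5a3 (-0.70, SE 0.16, adjusted p = 0.0101) and Col2a1 (-1.22) the latter. Col2a1 was not well above background on any Gyk array, and the Col23a1 difference turned to -0.19 with the normexp background. Col27a1 and Col5a1, which moved in the same direction under both knockdowns, gave differences between the effects of 0.32 (SE 0.18) and 0.13 (SE 0.15), neither passing. Without the slide 4 Gyk knockdown samples the count was 9, and a slide block gave 11. Leaving out single samples gave 1 to 8; the count was 1 without Pparg knockdown 4, 3 without any of 5 other Pparg samples or Gyk controls 3 or 4, and 8 without Gyk knockdown 3.

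**Figure D4:**
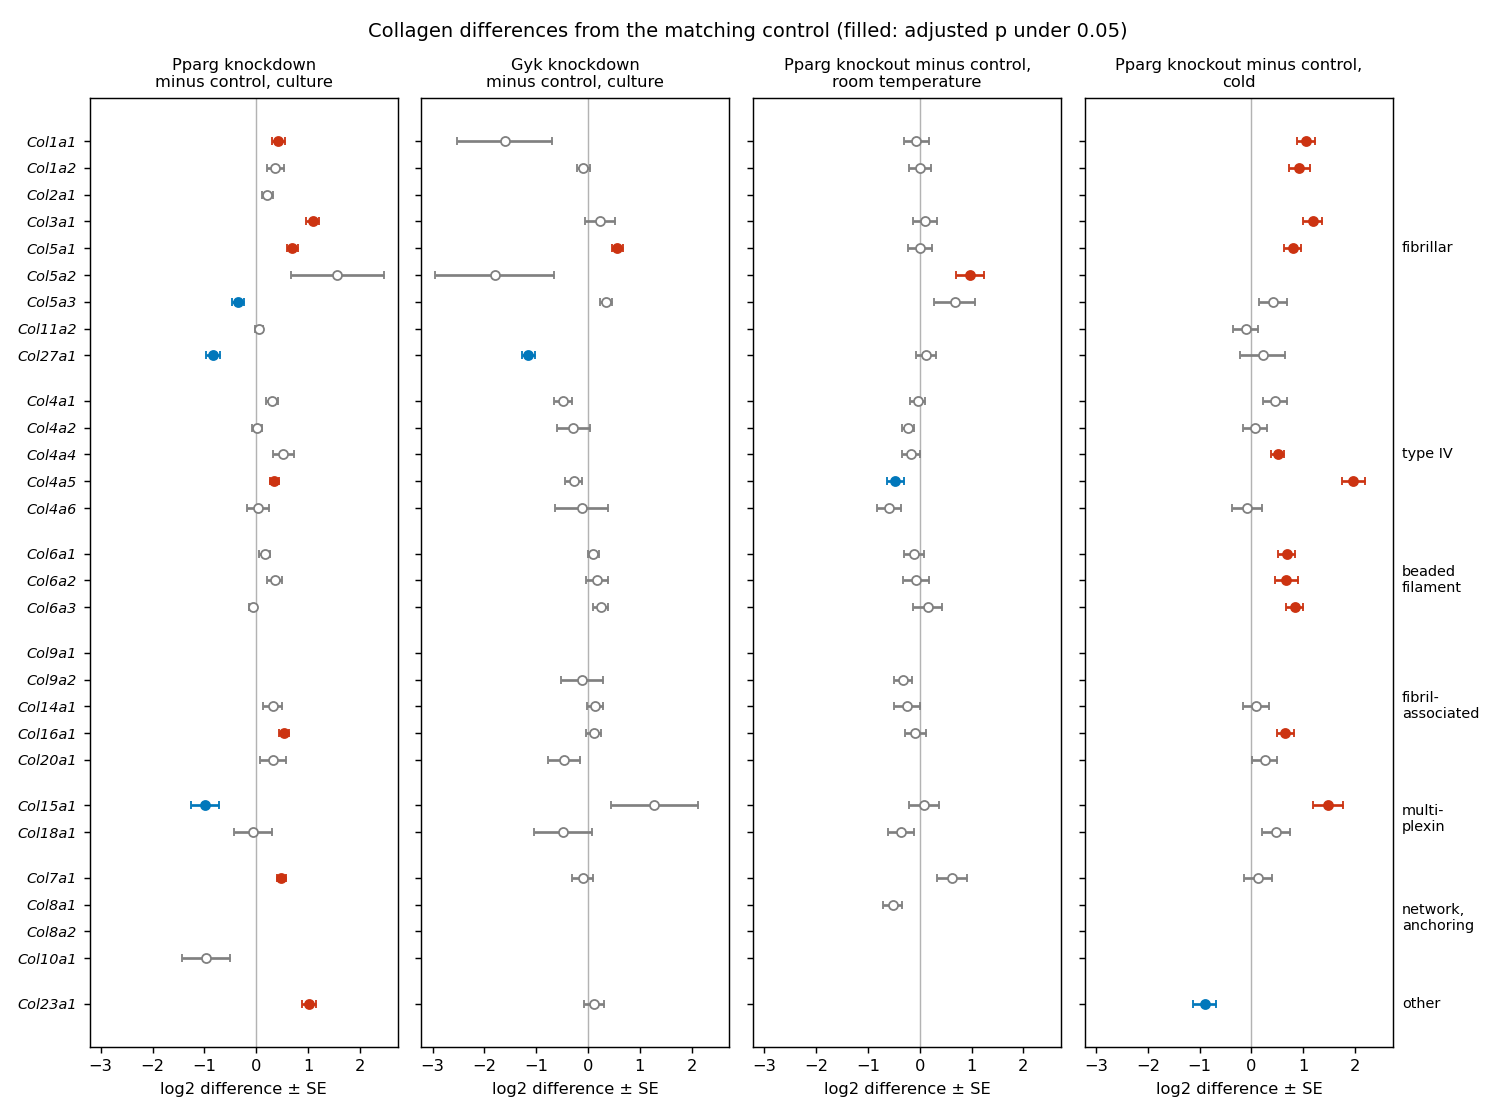
Log2 difference (horizontal, with SE bars) of each member tested, in 4 comparisons of a knockdown or labelled knockout with its own control; red and blue filled points passed an adjusted p of 0.05 as higher or lower, open grey points did not, and a gene without a point was not tested. The cold knockout panel holds 11 red points and 1 blue point, the Pparg knockdown panel 7 and 3, and the other panels 1 of each.

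Between the arrays labelled cold and room temperature most genes differed, and slide and scan day differed with the temperature. In controls 11 of 24 members were higher and 8 lower in the cold, where 66.8% of 13139 genes were called, 42.4% higher and 24.4% lower (median 0.33 against 0.25). In knockout samples 17 of 25 were higher and 3 lower, where 67.6% of 13395 genes were called, 42.2% higher and 25.3% lower (median 0.89 against 0.24). In controls Col20a1 among the higher and Col5a2, Col8a1 and Col9a2 among the lower were well above background only in the brighter group. So was Col8a1 among the lower in knockout samples. These members passed the filter through that group, so the filter fixed their direction and they lend the counts no support. With slide as a random block 16 members were called in each genotype.

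The fibrillar genes split in the controls. Col1a1 (-1.01, SE 0.22) and Col3a1 (-0.76, SE 0.22) were lower in the cold, Col5a2 was at least 2.55-fold lower, and Col27a1 (2.14) and Col5a3 (1.15) were higher, while Col1a2 (0.36) and Col5a1 (0.31) did not pass. In knockout samples Col1a1 gave 0.11 and Col3a1 0.33, neither passing, Col1a2 (1.29) and Col5a1 (1.10) were higher, and Col5a2 was lower (-1.69). Of the type IV genes, Col4a2 (0.35) and Col4a4 (0.74) were higher and Col4a6 lower (-1.18) in controls, with Col4a1 at 0.26; in knockout samples Col4a5 (2.18), Col4a4 (1.41), Col4a1 (0.75) and Col4a2 (0.63) were higher. Col6a1 and Col6a2 were higher in both genotypes (0.45 and 1.03 in controls, 1.24 and 1.76 in knockout samples), and Col6a3 gave -0.06 and 0.62, the latter passing.

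The largest differences were outside these classes. Col20a1, a fibril-associated collagen, read -4.93 to -4.43 at room temperature, not well above background on any of the 4 arrays, and -1.39 to -0.99 in the cold in controls, at least 9.08-fold higher. Col7a1 (3.04 and 2.53) and Col23a1 (2.80 and 3.42) were higher in controls and knockout samples, as were Col14a1 (1.06 and 1.39) and Col16a1 (0.70 and 1.44). At room temperature Col23a1 was well above background in 2 of 4 controls and 1 of 4 knockout samples, so its sizes rest partly on background readings. Over 17 alternative settings both Col23a1 calls were kept, with differences down to 1.26 in controls and 1.34 in knockout samples. A second probe of Col14a1 gave -0.59 and 0.46, neither passing. Col8a1, a chain of the hexagonal network in vessel walls, was not well above background in the cold and was at least 2.93-fold lower in controls and at least 1.98-fold lower in knockout samples, and Col9a2 was lower in both (at least 3.05-fold in controls, -1.37 in knockout samples). With the normexp background the differences in knockout samples turned to 0.075 for Col8a1 and 0.17 for Col9a2. Col15a1 (-1.19) and Col18a1 (-1.02) were lower in controls and gave 0.20 and -0.18 in knockout samples; the mean of the 3 Col15a1 probes gave -0.60 there and passed.

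Among the pathway genes in controls, where 66.8% of all genes were called, 9 of 20 folding genes were higher in the cold and 8 lower, with Creb3l1 at 1.68 and Serpinh1, the collagen chaperone, at -2.21. Of 10 processing genes 5 were higher and 1 lower, of 7 receptors 1 was higher and 4 lower, of 11 basement membrane partners 6 were higher and 2 lower, and of 9 fibril-binding genes 4 were higher and 1 lower. In knockout samples the higher and lower counts were 9 and 7 of 20, 7 and 0 of 10, 2 and 1 of 7, 9 and 0 of 11, and 6 and 1 of 8. Of the fibroblast markers, 3 of 9 were higher and 3 lower in controls and 6 higher in knockout samples. Of 7 mural and smooth muscle markers 5 were higher and 1 lower in each genotype, with Acta2 at 0.71 in controls and 1.5 in knockout samples. Of 5 macrophage markers 2 were higher in controls and 3 in knockout samples (Csf1r 0.81 and 1.35). Of 6 adipocyte markers 4 were higher and 2 lower in controls and 2 higher and 1 lower in knockout samples (Adipoq 1.81 and 1.5), and of 7 endothelial markers 2 were higher and 4 lower (Cdh5 -1.33) and 3 higher and 2 lower. Cd3d was higher in both (1.71 and 1.55) and Cd4 lower in both (-2.55 and -2.51). Of the brown adipocyte markers, Elovl3 (-6.22), Dio2 (-1.26) and Ucp1 (-1.03) were lower in the cold in knockout samples. Cidea (-0.08), Cox8b (0.21) and Ppargc1a (1.46) did not pass there. In controls the means at room temperature and in the cold were 4.14 and 3.31 for Dio2, 4.09 and 3.31 for Ppargc1a and 10.18 and 9.91 for Cidea. The part of these markers in the result was not tested.

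**Figure D5:**
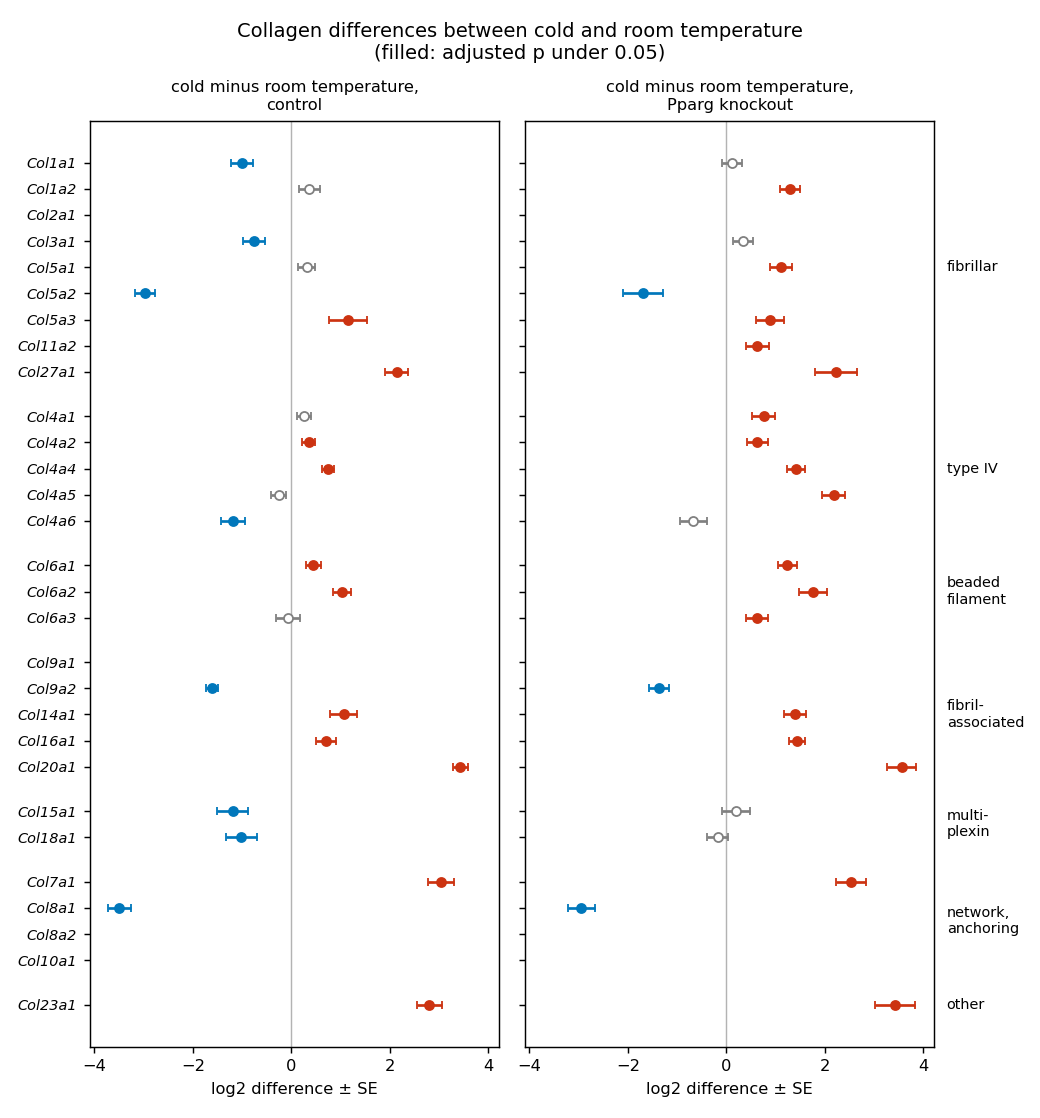
Log2 difference (horizontal, with SE bars) between cold and room temperature for each member tested, in controls (left) and in samples labelled knockout (right); red and blue filled points passed an adjusted p of 0.05 as higher or lower, and a gene without a point was not tested. Col1a1, Col3a1, Col15a1 and Col18a1 are blue in controls and open in knockout samples.

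Culture and mouse samples differed in source, slide and day together and were set side by side without a test. Every culture array was above every mouse array for 6 of the 29 members (Col4a5, Col5a1, Col6a1, Col6a2, Col6a3 and Col16a1), below for 1 (Col5a3), and overlapping for 22. All 3 type VI chains were thus higher in culture, by 2.06 to 3.18 on average. The largest difference was that of Col4a5, 4.73, whose levels ran from 1.49 to 2.39 in culture and from -3.89 to -0.89 in mice; the cold knockout samples held the 4 highest mouse values. Across its 8 groups the order of Col4a5 means was Gyk control (2.31), Gyk knockdown (2.04), Pparg knockdown (1.91), Pparg control (1.55), cold knockout (-1.32), room-temperature control (-3.02), cold control (-3.28) and room-temperature knockout (-3.49), a list in which the first 3 overlapped with their neighbours, as did the last 3, and the other neighbours did not overlap.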

How the data were processed

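The 32 arrays were Agilent one-colour mouse arrays of 44397 spots, labelled with Cy3 from 200 ng of total RNA per the labels' protocols. The deposited intensity values are gProcessedSignal from Agilent Feature Extraction 10.7.3.1, per the submitters' processing notes, already background-subtracted per the file headers. The deposited series value table held the same numbers (largest relative difference 0), so it was not run as an alternative. Here log2 was taken of the deposited intensity and each array's 75th percentile over non-control spots subtracted (percentiles 141 to 806). Spots marked as outliers (101 to 247 an array) were removed and spots of a probe averaged. Accessions named 27234 of 39429 probes (69.1%) through the RefSeq gene table of GRCm38.p6, used for names only; the array's own grid is mm9. A gene was tested where its probe was well above background on 4 or more arrays of the fit. Each pairwise comparison was fitted on its own 8 arrays, and differences between effects on 16, with limma 3.58.1 in R 4.3.3 (lmFit, eBayes, 2-sided, Benjamini-Hochberg over all genes tested, 0.05). The fit was tested on simulated data. The number of arrays limits the precision.

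The collagen members, the classes and the pathway and marker lists were chosen with earlier results of these data known. Named in every comparison were Col1a1, Col1a2, Col3a1, Col5a1, Col5a2, Col4a1, Col4a2, Col6a1, Col6a2, Col6a3, Col15a1 and Col18a1, then up to 6 members in each direction with the largest called differences, and up to 3 genes in each direction from each other list. Deviations from the group means correlated at 0.703 to 0.767 between same-numbered samples of the Pparg knockdown experiment. Other samples of the same slide gave 0.690 to 0.725, and samples of different slides -0.791 to -0.682. Sample number and slide therefore cannot be told apart in this correlation. Alternatives changed the background correction (normexp, offset 50), the scaling, the filter on dim probes, the probe rule, the slide or replicate block, the arrays in the fit and each single sample. Promoter sequences came from RefSeq (GRCm38.p6).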

Additional observations from a re-analysis of the deposited data

Results flagged for a closer look

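In 10 of 230 groups of 4 samples, 1 array stood far from the other 3 by Dixon's criterion. Chance flags about 1 in 20 groups, and in 6 of the 10 the probe was well above background on all 4 arrays. Col11a2 read -5.20 on room-temperature knockout array 2, against -4.45 to -4.32 on the other 3. Col27a1 read -2.08 on room-temperature control array 1, against -1.44 to -1.42 on the other 3. Col27a1 read -0.074 on cold control array 1, against 0.66 to 0.80 on the other 3. Col2a1 read -3.05 on Pparg knockdown culture array 3, against -3.24 to -3.23 on the other 3. Col2a1 read -5.15 on cold control array 4, against -6.49 to -6.28 on the other 3. Col4a5 read -3.37 on room-temperature control array 1, against -2.94 to -2.88 on the other 3. Col8a1 read -5.91 on Pparg knockdown culture array 2, against -7.46 to -7.36 on the other 3. Col9a2 read -4.93 on Pparg knockdown culture array 3, against -4.71 to -4.68 on the other 3. Col9a2 read -2.50 on room-temperature control array 1, against -2.78 to -2.74 on the other 3. Col9a2 read -3.56 on room-temperature knockout array 1, against -2.86 to -2.81 on the other 3.

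The labelled knockout difference was not the same at both temperatures for 3 members (limma, adjusted p under 0.05), as log2 difference in the cold minus that at room temperature: Col1a1 1.12, Col3a1 1.09 and Col4a5 2.44. Of all 14068 genes tested, 13.4% differed in this way. The 13 pathway genes that also differed gave Agrn 0.78, Bmp1 0.69, Hspg2 1.47, Lama5 1.62, Lox -1.26, Mia3 -0.57, Mrc2 0.86, Nid2 1.0, Pcolce 1.96, Plod2 1.63, Ppib 0.49, Sparc 0.87 and Tnxb 0.70. How many pathway genes were tested is not given here, so the 13 are not read against that share.

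The Pparg knockdown difference was not the same as the Gyk knockdown difference for 5 members, as the former minus the latter: Col23a1 0.91, Col2a1 -1.22, Col4a1 0.79, Col4a5 0.63 and Col5a3 -0.70. Of all 13118 genes tested, 12.4% differed in this way. The 16 pathway genes among them gave Adamts14 -0.95, Adamts2 -0.70, Aspn 4.16, Bgn 1.09, Bmp1 0.67, Ddr2 1.28, Dpt 2.89, Fmod 2.35, Itga1 -0.52, Lama5 -0.88, Lamb1 -0.55, Mrc2 1.20, Nid2 1.82, Ogn 3.15, Pcolce 0.73 and Tmem38b -0.69. The number of pathway genes tested is again not given, so the 16 are not read against that share. Aspn and Dpt were not well above background in any Pparg control, nor Dpt in any Gyk sample and Col2a1 in any Gyk sample, so these 3 values rest on groups at background and give no size.

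Probes that were not used for their gene passed the test where the probe used did not. For Col18a1 the second probe gave 0.41 between cold and room temperature in knockout samples, against -0.18. For Col4a6 the second probe gave 1.55 under Pparg knockdown (probe used 0.03), 0.77 under Gyk knockdown (probe used -0.12) and 0.77 for the difference between them (probe used 0.15).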

How the results depend on the processing

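Members called numbered 10 for Pparg knockdown, 2 for Gyk knockdown, 2 for room-temperature knockout, 12 for cold knockout, 19 and 20 for cold in controls and knockout samples, 3 for the cold minus room-temperature effect and 5 for the Pparg minus Gyk effect. Counts under other settings, here and above, are of members only. Without the share of all genes called in each setting, they show nothing particular to collagens. Of 1180 alternative values of members that passed, 992 kept direction and call, 184 kept direction only and 4 changed sign; of 1287 values of members that had not passed, 80 changed sign and 72 passed. With the normexp background, the count was 1 for Gyk knockdown, 0 for room-temperature knockout, 5 for cold knockout, 11 for cold in knockout samples, 1 for the cold minus room-temperature effect and 2 for the Pparg minus Gyk effect, and these values changed sign: Col6a3 0.070 and Col23a1 -0.011 (Pparg knockdown), Col1a2 -0.0048 and Col5a1 0.026 (room-temperature knockout), Col4a2 -0.13 (cold knockout), Col1a1 -0.067, Col8a1 0.075 and Col9a2 0.17 (cold in knockout samples), Col23a1 -0.19 (the Pparg minus Gyk effect). With quantile normalization, the count was 1 for room-temperature knockout, and these values changed sign: Col6a3 0.056 (Pparg knockdown), Col1a1 0.031, Col5a1 0.021 and Col4a1 0.056 (room-temperature knockout). With the median in place of the 75th percentile, the count was 1 for Gyk knockdown, 1 for room-temperature knockout and 2 for the Pparg minus Gyk effect, and these values changed sign: Col4a2 -0.12 (Pparg knockdown), Col6a1 -0.0076 (Gyk knockdown), Col1a1 0.033, Col5a1 0.10, Col4a1 0.061 and Col6a2 0.036 (room-temperature knockout), Col6a3 0.29 (cold in controls), Col18a1 0.011 (cold in knockout samples). Without the filter on dim probes, the count was 1 for Gyk knockdown, 4 for room-temperature knockout and 2 for the Pparg minus Gyk effect. With a filter that asks for every array of 1 group, the count was 5 for the cold minus room-temperature effect. With the mean of all probes of a gene, these values changed sign: Col15a1 -0.066 (room-temperature knockout), Col15a1 -0.60 and Col18a1 0.11 (cold in knockout samples), Col18a1 -0.047 (the Pparg minus Gyk effect). With all 32 arrays in 1 fit, the count was 5 for Pparg knockdown and 1 for room-temperature knockout. With a slide block, the count was 17 for Pparg knockdown and 11 for the Pparg minus Gyk effect. With the replicate number as a block, the count was 18 for Pparg knockdown, 1 for Gyk knockdown and 5 for the cold minus room-temperature effect. Without Gyk knockdown samples 3 and 4, the count was 5 for Gyk knockdown and 9 for the Pparg minus Gyk effect, and these values changed sign: Col3a1 -0.31, Col4a2 0.33 and Col15a1 -0.34 (Gyk knockdown), Col4a2 -0.31, Col6a1 -0.016 and Col6a2 -0.17 (the Pparg minus Gyk effect). Without cold knockout samples 1 and 2, these values changed sign: Col4a2 -0.32 (cold knockout). On slide 1 alone, the count was 16 for Pparg knockdown. On slide 2 alone, these values changed sign: Col4a2 -0.0016 (Pparg knockdown). On slide 3 alone, the count was 0 for Gyk knockdown, and these values changed sign: Col4a2 0.29 and Col15a1 -0.19 (Gyk knockdown). On slide 4 alone, the count was 5 for Gyk knockdown, and these values changed sign: Col1a2 0.098, Col6a2 -0.13 and Col18a1 0.17 (Gyk knockdown). On slide 5 alone, these values changed sign: Col1a2 -0.15, Col3a1 -0.14 and Col4a1 0.17 (room-temperature knockout). On slide 6 alone, these values changed sign: Col1a1 0.089, Col5a1 0.13, Col6a2 0.047 and Col15a1 -0.026 (room-temperature knockout). On slide 7 alone, the count was 7 for cold knockout. On slide 8 alone, these values changed sign: Col4a2 -0.16 (cold knockout). Leaving out each sample in turn gave counts of 1 to 2 for Gyk knockdown, 1 to 4 for room-temperature knockout, 1 to 7 for the cold minus room-temperature effect and 1 to 8 for the Pparg minus Gyk effect. Over the same fits these values changed sign, given as lowest to highest: Col4a2 -0.049 to 0.072 and Col18a1 -0.25 to 0.16 (Pparg knockdown), Col18a1 -0.76 to 0.15 (Gyk knockdown), Col1a1 -0.23 to 0.12, Col1a2 -0.13 to 0.16, Col3a1 -0.065 to 0.24, Col5a1 -0.13 to 0.17, Col4a1 -0.15 to 0.042, Col6a1 -0.22 to 0.028, Col6a2 -0.21 to 0.16, Col6a3 -0.079 to 0.33 and Col15a1 -0.17 to 0.28 (room-temperature knockout), Col4a2 -0.12 to 0.24 (cold knockout), Col6a3 -0.29 to 0.12 (cold in controls), Col1a1 -0.012 to 0.27 and Col15a1 -0.016 to 0.39 (cold in knockout samples), Col6a1 -0.013 to 0.12 and Col18a1 -0.22 to 0.70 (the Pparg minus Gyk effect). At the normexp count of 0 for room-temperature knockout, limma also gave 0 members at an unadjusted p under 0.05; at the count of 0 on slide 3 it gave 5. The causes were not tested. Outside the Pparg knockdown, same-numbered samples did not deviate together throughout. Of 4 pairs, 2 correlated over 0.1 in Gyk knockdown, 0 in room-temperature knockout, 2 in cold knockout and 1 in each comparison of temperatures. Leaving out the cold knockout samples of either slide was chosen after seeing the data and left 10 members called each time.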
